A study of Homo sapiens with 15 samples.

Results

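SOCS1, SOCS2, SOCS3, CISH, PIM1, PIM2, PIM3 and BCL3 are genes that cytokine signaling through STAT factors is known to induce. They were followed in multiple myeloma (MM) cells cultured with or without bone marrow stroma. The members were taken by gene symbol, and all 8 were found among the 20468 genes measured. Human MM.1S and RPMI8226 cells, each an established MM cell line, were cultured for 48 h alone (MONO), in an upper transwell that shared medium with HS5 stromal cells (TSW), or in the lower chamber in contact with HS5 cells (CO). By the study's methods the transwell was set into wells that held both HS5 and MM cells, so TSW cells shared medium with MM cells below. The labels do not say whether TSW and CO libraries came from the same wells. HS5 is an established human bone marrow stromal line, and all groups were kept in RPMI-1640 medium. RNA-Seq covered 3 libraries per condition for MM.1S and 2 per condition for RPMI8226, 15 in all. The study's methods describe flow sorting of CD90-CD38+ cells before RNA was taken, and the study notes that some HS5 material was carried over into the CO cells. Before sorting, a trypsin step is described for the co-culture conditions and not for MONO. Its part in differences from MONO was not tested. Each MM cell type stands on 1 line. The labels do not say whether replicates were separate cultures, so p-values measure only the spread between these libraries.

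Interleukin-6 and related cytokines from marrow stroma bind receptors that carry JAK kinases, and the JAKs phosphorylate STAT3, which then enters the nucleus and switches on target genes. SOCS proteins and CISH are among these targets and act backwards on the pathway, by blocking the kinase or the receptor and by recruiting a ubiquitin ligase through their SOCS box. PIM kinases are targets too, and need no activating phosphorylation, so their activity follows the amount of protein made; PIM2 in particular is known to sustain growth of myeloma cells. BCL3 is an atypical IkB protein that binds NF-kappaB p50 and p52 homodimers in the nucleus, and its gene responds to both STAT3 and NF-kappaB.

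Expression is given as RPKM, which divides the read pairs of a gene (pair-end tags, PETs) by its transcript length in kilobases and by the depth of its library. Library depth ran from 9008909 to 19050583 PETs on genes. Tests were made with limma on log2(RPKM + 1), so a log2 fold change understates the change of a gene with a low RPKM. Called genes had an adjusted p under 0.05 (Benjamini and Hochberg, over all genes tested) and changed more than 1.5-fold. Genes whose mean RPKM in the line did not reach 1 were left out by a filter, which kept 10153 genes in MM.1S and 10319 in RPMI8226. In MM.1S 5 of the 8 members passed this filter and in RPMI8226 7 did, and SOCS3 in MM.1S passed it through TSW and CO only. SOCS1, SOCS2 and CISH in MM.1S and SOCS1 in RPMI8226 did not, and their tests come from a fit of all genes with any PET (16587 in MM.1S and 16784 in RPMI8226). Replicate 1 of MM.1S MONO was the shallowest library, and its PETs differed from those of replicates 2 and 3 by a chi-square of 47.7 and 44.0 per gene, against 15.1 between replicates 2 and 3. Without it, 4 members were called higher in TSW and 4 in CO vs MONO in MM.1S, as with it.

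The labelled cell type was checked on marker genes. All 8 plasma cell markers had PETs in every library, and 8 in MM.1S and 7 in RPMI8226 reached an RPKM of 1 in all. The exception in RPMI8226 was SLAMF7, a surface receptor of plasma cells, which had a mean RPKM between 0.0282 and 0.0884 over the conditions. Among 4 B cell markers, PAX5 had the highest RPKM, at most 0.659, and MS4A1 had no PET in any library.

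In MM.1S, the soluble environment of the transwell was accompanied by higher SOCS3, PIM2, PIM3 and BCL3. These 4, of 5 members past the filter, were called higher in TSW vs MONO, where 6.48% of the genes past the filter were. SOCS2 was called lower in the fit of all genes. It failed the filter through its low TSW and CO values, while SOCS3 passed only through its high ones, so the outcome shapes which members are counted past the filter and their counts are a description. Of the 5 past the filter 0 were called lower by limma or voom, against 4.16% of genes, and 5 of the 8 members had an unadjusted p under 0.05 in either direction. The same 4 members were called higher in CO vs MONO, against 7.13% of genes, and SOCS2 was again called lower in the fit of all genes. Past the filter 0 were called lower by limma or voom, against 4.65% of genes, with 6 at an unadjusted p under 0.05. In RPMI8226 SOCS3, CISH, PIM2, PIM3 and BCL3 were called higher in TSW vs MONO, 5 of the 7 past the filter, against 14.5% of the genes past it. SOCS1 was called higher there in the fit of all genes, as 9.46% were, which makes 6 of the 8 members. In CO vs MONO the 5 members past the filter were also called higher, against 16.4% of genes, and SOCS1 was not. Again 0 members past the filter were called lower by limma or voom, while 17.9% of genes for TSW vs MONO and 22.9% for CO vs MONO were. That more genes were called lower than higher in RPMI8226 depends on the processing, since median-of-ratios scaling gave 1700 higher and 1560 lower in TSW and 2021 and 1904 in CO, and the loess correction 1742 and 1471, and 1922 and 1835. Unadjusted p was under 0.05 for 7 and 6 members. How many of all genes reached that cutoff was not counted in either line, so these counts are not read as a result. At an adjusted p under 0.05 without the fold threshold, 2996 genes were higher and 3925 lower in RPMI8226 TSW vs MONO, of 10319. For CO vs MONO these were 3123 and 4299. In MM.1S they were 1459 and 1310 of 10153 for TSW, and 1647 and 1528 for CO vs MONO. TSW vs MONO and CO vs MONO share their MONO libraries, so their calls are not independent of each other. In these bulk samples fewer cells of a type and less RNA per cell cannot be told apart. The plot of RPKM by library shows the levels behind these calls.

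**Figure D1:**
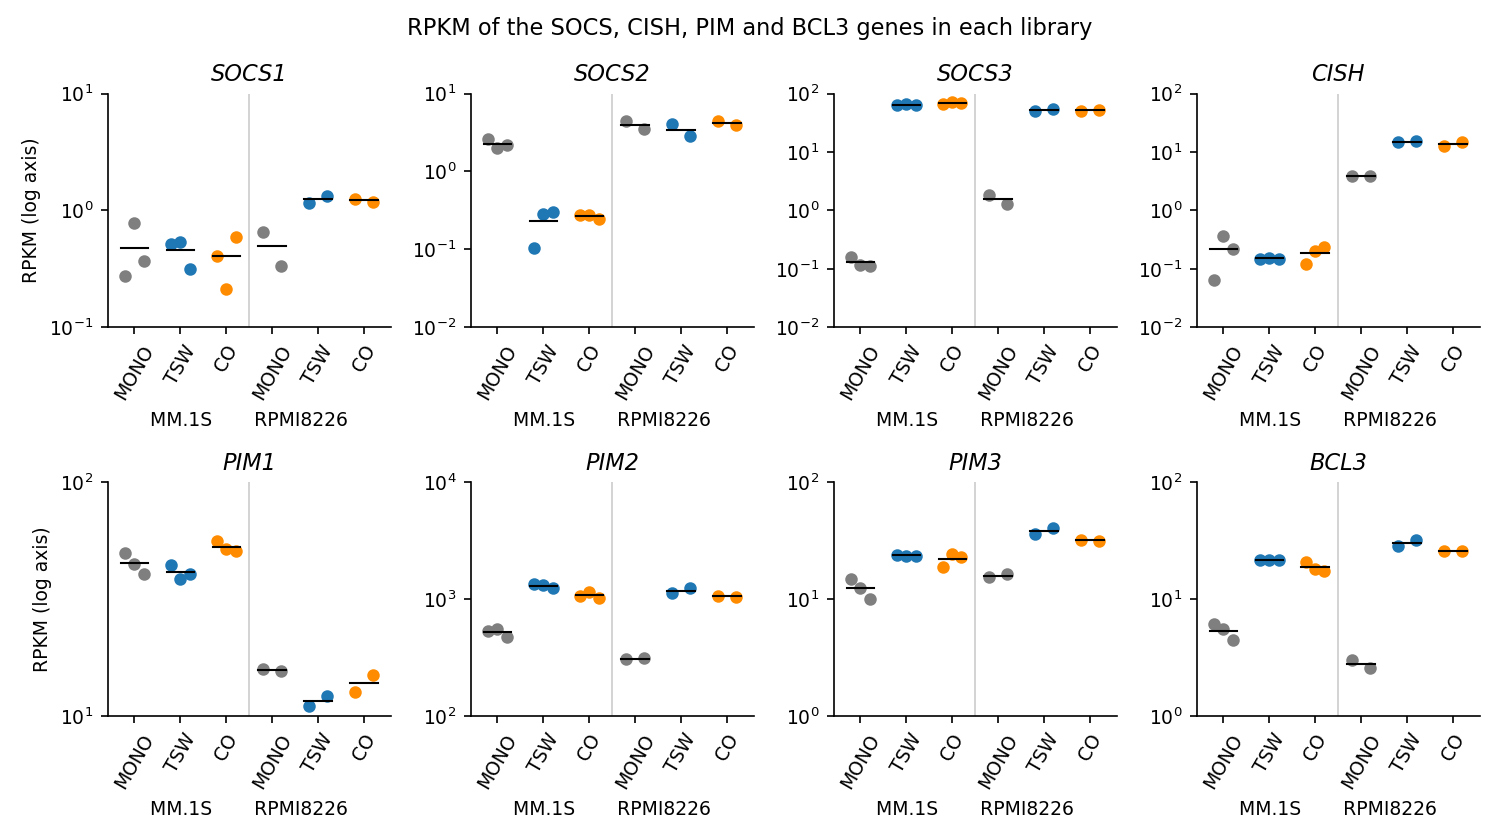
RPKM of each of the 8 genes on a log axis, 1 point per library, by culture condition in MM.1S (left of each panel) and RPMI8226 (right), with black lines at the means. SOCS3 stands at 0.110 to 0.162 in MM.1S MONO and at 62.7 to 71.9 in MM.1S TSW and CO.

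SOCS3 binds JAK kinases and the shared receptor chain gp130 and shuts down their signal. SOCS3 (Entrez 9021, chr17:78356778-78360925) had an RPKM of 0.162, 0.115 and 0.110 in the MM.1S MONO libraries, 63.5, 66.9 and 62.7 in TSW, and 65.6, 71.9 and 68.4 in CO. The MONO libraries held 4, 6 and 4 PETs of the gene and lay far under all TSW and CO libraries, while TSW and CO overlapped. The ratio of mean RPKM was 498 for TSW and 532 for CO over MONO, and rests on those few PETs. With voom on PETs the log2 fold changes were 8.87 and 8.96. In RPMI8226 SOCS3 stood at 1.82 and 1.31 in MONO, 50.9 and 53.8 in TSW, and 50.5 and 53.1 in CO. Here too MONO was low without overlap, but it started 12.1 times above the MM.1S MONO mean. In RPMI8226 the log2 fold change was 4.39 (SE 0.10, limma adjusted p = 3.12e-10) for TSW vs MONO and 4.37 (SE 0.10, adjusted p = 3.08e-10) for CO vs MONO. By rank of mean RPKM, the gene moved from place 12267 of 20468 in MM.1S MONO to place 1014 in TSW and 924 in CO, and from 9580 in RPMI8226 MONO to 1299 and 1221.

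CISH binds phosphorylated cytokine receptors and is the classical target of STAT5. CISH (Entrez 1154, chr3:50606489-50611774) had an RPKM of 3.91 and 3.92 in RPMI8226 MONO, 14.6 and 15.2 in TSW, and 12.6 and 14.9 in CO. Both stromal conditions lay above MONO without overlap, and they overlapped each other. CISH changed by a log2 fold change of 1.69 (SE 0.10, limma adjusted p = 1.61e-07) for TSW vs MONO and 1.58 (SE 0.10, adjusted p = 1.83e-07) for CO vs MONO. MM.1S gave 0.0649, 0.358 and 0.220 in MONO, 0.150, 0.154 and 0.149 in TSW, and 0.121, 0.203 and 0.240 in CO, which stands on 3 to 35 PETs per library. All MM.1S libraries were low and the conditions overlapped. CISH overlaps MAPKAPK3, a kinase gene on the opposite strand, and whether the counting used strand is not given in the sources used here. In RPMI8226, MAPKAPK3 had a mean RPKM of 40.9 in MONO, 24.1 in TSW and 18.7 in CO. Its MM.1S means were 16.0, 15.8 and 13.1. In RPMI8226 it was lower with stroma while CISH was higher. Whether MAPKAPK3 reads add to the CISH values was not tested.

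Promoter sequence was looked up for the members because several of them rose together. RefSeq windows of GRCh38.p14, from 250 bases before to 50 after a gene's start, were found for 7 of the 8 members, with 8 windows in all. SOCS2 was the member without one. The motif TTCNNNGAA, the spaced palindrome that STAT dimers prefer, reads the same on both strands and matched 2689 of 35116 windows of this length, or 7.66%. CISH held 4 matches, with first bases at -241, -230, -129 and -112 from the start, and 7 of all 35116 windows (0.0199%) held 4 or more. The 7 windows of the other 6 members held none. Searched on both strands, the AP-1 motif TGANTCA (7.71% of windows) and the ATF-CEBP motif TGATGCAA (0.866%) had no match in any window of the members. A match is a description and not a binding site or a cause, and no match says only that these letters are not in the window. The bases before the start are printed for CISH, whose window holds the matches, and for SOCS3 (its upstream window) and PIM2, which were called higher in both lines and whose windows hold none. They read 5′ to 3′ on the minus strand at chr3:50611775-50612024, chr17:78360926-78361175 and chrX:48919025-48919274, with the STAT motif in capitals.
CISH: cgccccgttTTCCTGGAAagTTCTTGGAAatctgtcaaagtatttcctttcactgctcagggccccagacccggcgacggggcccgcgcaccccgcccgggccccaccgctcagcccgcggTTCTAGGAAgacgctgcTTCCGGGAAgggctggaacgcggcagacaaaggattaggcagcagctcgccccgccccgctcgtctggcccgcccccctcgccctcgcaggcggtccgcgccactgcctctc
SOCS3: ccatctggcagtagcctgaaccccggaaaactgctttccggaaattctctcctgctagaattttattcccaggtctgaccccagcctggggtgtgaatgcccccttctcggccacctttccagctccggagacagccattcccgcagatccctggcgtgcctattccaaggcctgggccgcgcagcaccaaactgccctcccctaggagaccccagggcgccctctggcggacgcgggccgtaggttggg
PIM2: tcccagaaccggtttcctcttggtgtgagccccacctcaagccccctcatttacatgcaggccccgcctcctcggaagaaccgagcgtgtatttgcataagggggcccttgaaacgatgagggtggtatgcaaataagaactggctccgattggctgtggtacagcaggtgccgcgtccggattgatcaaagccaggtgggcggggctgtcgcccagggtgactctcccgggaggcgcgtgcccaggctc

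**Figure D2:**
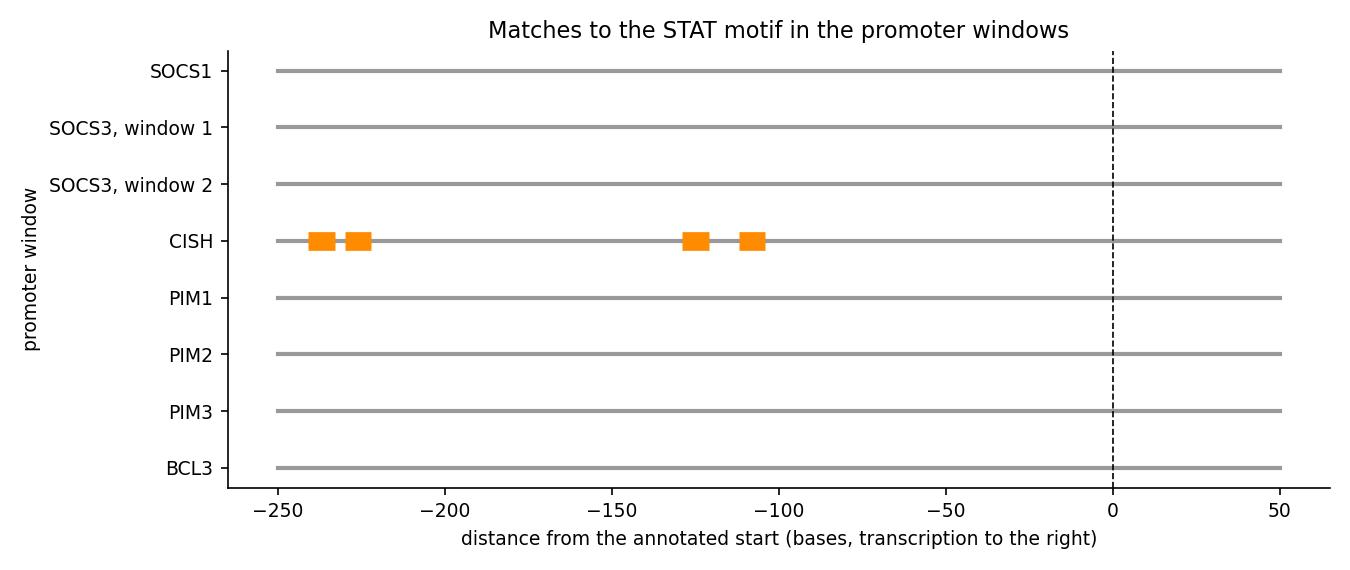
Positions of matches to the STAT motif (orange) in the 8 promoter windows of 7 members, as distance in bases from the annotated start (dashed line). The 4 matches lie in CISH as an upstream pair at -241 and -230 and a nearer pair at -129 and -112.

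SOCS2 is known to restrain growth hormone and STAT5 signaling. SOCS2 (Entrez 8835, chr12:93569969-93626236) had an RPKM of 2.58, 1.98 and 2.17 in MM.1S MONO, 0.104, 0.282 and 0.298 in TSW, and 0.277, 0.279 and 0.242 in CO. It went against SOCS3, with every MONO library above every TSW and CO library. MONO exceeded TSW 9.86 times and CO 8.44 times in mean RPKM. In the fit of all genes its log2 fold change was -1.40 (SE 0.08, limma adjusted p = 2.78e-05) for TSW vs MONO, where 2.69% of genes were called lower. For CO vs MONO it was -1.35 (SE 0.08, adjusted p = 1.70e-05), where 2.996% were. With voom on PETs these changes were -3.37 and -3.01. RPMI8226 had 4.38 and 3.52 in MONO, 4.03 and 2.81 in TSW, and 4.40 and 3.92 in CO. These 3 conditions overlapped, and the log2 fold changes were -0.17 (95% interval -0.49 to 0.14) for TSW and 0.06 (-0.25 to 0.38) for CO vs MONO.

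SOCS1 inhibits JAK catalysis and is best known as a brake on interferon signals. SOCS1 (Entrez 8651, chr16:11254417-11256204) was near the detection limit in MM.1S, with 0.274, 0.777 and 0.372 in MONO, 0.519, 0.541 and 0.313 in TSW, and 0.409, 0.214 and 0.595 in CO. The MM.1S conditions overlapped throughout, on 3 to 18 PETs per library. In RPMI8226 it had an RPKM of 0.659 and 0.333 in MONO, 1.15 and 1.33 in TSW, and 1.26 and 1.18 in CO. MONO lay under TSW and CO without overlap, on 6 and 10 PETs against 25 to 29. The log2 fold change for TSW vs MONO was 0.59 (SE 0.12, limma adjusted p = 0.0107), a call in the fit of all genes, and 1.35 with voom. It lay at the fold threshold, and the call was lost without RPMI8226 MONO replicate 2 (0.43), without either TSW replicate (adjusted p = 0.0542 and 0.0805) and without CO replicate 1 (adjusted p = 0.0530). For CO vs MONO it was 0.58 (SE 0.12, limma adjusted p = 0.0100), a fold change just under 1.5 and not a call. In CO vs MONO the gene was called with voom (1.33), a pseudocount of 0.1 (1.20), median-of-ratios scaling (0.62) and the loess correction (0.70). Without RPMI8226 MONO replicate 1 its change there was 0.74. SOCS1 overlaps RMI2 on the opposite strand, whose mean RPKM was 16.4 in RPMI8226 MONO, 18.8 in TSW and 16.6 in CO.

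PIM2 was the most abundant member in all 15 libraries. PIM2 (Entrez 11040, chrX:48913182-48919024) had an RPKM of 529, 549 and 472 in MM.1S MONO, 1336, 1302 and 1229 in TSW, and 1064, 1149 and 1021 in CO. In RPMI8226 it had 305 and 313 in MONO, 1126 and 1230.2 in TSW, and 1058 and 1044 in CO. In both lines the order was MONO, CO, TSW from low to high, with no overlap between any of the conditions. Mean RPKM in TSW was 2.50 times that in MONO in MM.1S and 3.81 times in RPMI8226. The log2 fold change for TSW vs MONO was 1.32 (SE 0.12, limma adjusted p = 1.55e-05) in MM.1S and 1.93 (SE 0.07, adjusted p = 6.53e-09) in RPMI8226. For CO vs MONO it was 1.06 (adjusted p = 7.74e-05) and 1.76 (adjusted p = 9.36e-09). The gene ranked 110 in MM.1S MONO and 174 in RPMI8226 MONO, and between 40 and 48 of all genes in TSW and CO of both lines.

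PIM3, a related survival kinase, was also higher with stroma at a much lower level. PIM3 (Entrez 415116, chr22:49960772-49964072) had an RPKM of 14.8, 12.4 and 10.0 in MM.1S MONO, 23.9, 23.5 and 23.5 in TSW, and 18.9, 24.0 and 23.0 in CO. In RPMI8226 it had 15.3 and 16.4 in MONO, 36.2 and 40.2 in TSW, and 32.1 and 31.4 in CO. MONO lay under both stromal conditions without overlap in each line. The log2 fold change for TSW vs MONO was 0.89 (SE 0.13, limma adjusted p = 0.000753) in MM.1S and 1.22 (SE 0.08, adjusted p = 4.40e-07) in RPMI8226, and for CO vs MONO it was 0.79 (adjusted p = 0.00168) and 0.96 (adjusted p = 1.71e-06).

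PIM1, the founding kinase of the family and a textbook STAT target, was not called in any comparison. PIM1 (Entrez 5292, chr6:37170152-37175428) had an RPKM of 49.9, 44.5 and 40.3 in MM.1S MONO, 44.1, 38.5 and 40.5 in TSW, and 55.9, 51.5 and 50.8 in CO. MONO and TSW overlapped, and CO lay above both. The log2 fold change was -0.12 (95% interval -0.34 to 0.10, limma adjusted p = 0.376) for TSW vs MONO and 0.23 (0.01 to 0.45, adjusted p = 0.0963) for CO vs MONO. RPMI8226 held less of it, with 15.9 and 15.6 in MONO, 11.0 and 12.1 in TSW, and 12.6 and 14.9 in CO. Every TSW and CO library lay under MONO there. For TSW vs MONO the log2 fold change of -0.42 (SE 0.09) had an adjusted p of 0.00262 but a fold change under 1.5, and for CO vs MONO it was -0.19 (adjusted p = 0.0929), which became 0.06 with a correction for GC content and length.

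Within the PIM family the shares of the kinases changed, and the difference between the kinases was not tested. PIM2 made up 89.1% to 90.6% of the summed PIM RPKM in MM.1S MONO and 95.0% to 95.5% in TSW. PIM1 fell from between 7.35% and 8.40% of the sum to between 2.83% and 3.14%, while its own RPKM overlapped between MONO and TSW. In MM.1S CO the PIM1 share was 4.20% to 4.91%, although its own RPKM lay above MONO there without overlap. In RPMI8226 the PIM1 share was 4.52% to 4.74% in MONO, 0.937% to 0.944% in TSW and 1.14% to 1.36% in CO. The SOCS and CISH genes changed from a low sum of mixed genes to a high sum led by SOCS3. In MM.1S MONO, SOCS2 held 61.3% to 83.8% of a sum between 2.88 and 3.23, while in TSW SOCS3 held 98.6% to 98.8% of a sum between 63.4 and 67.9. The RPMI8226 MONO sum of 9.08 to 10.8 was split between SOCS2 (38.7% to 40.7%) and CISH (36.3% to 43.2%), and in TSW SOCS3 held 72.0% to 73.6% and CISH 20.7% to 20.8%.

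**Figure D3:**
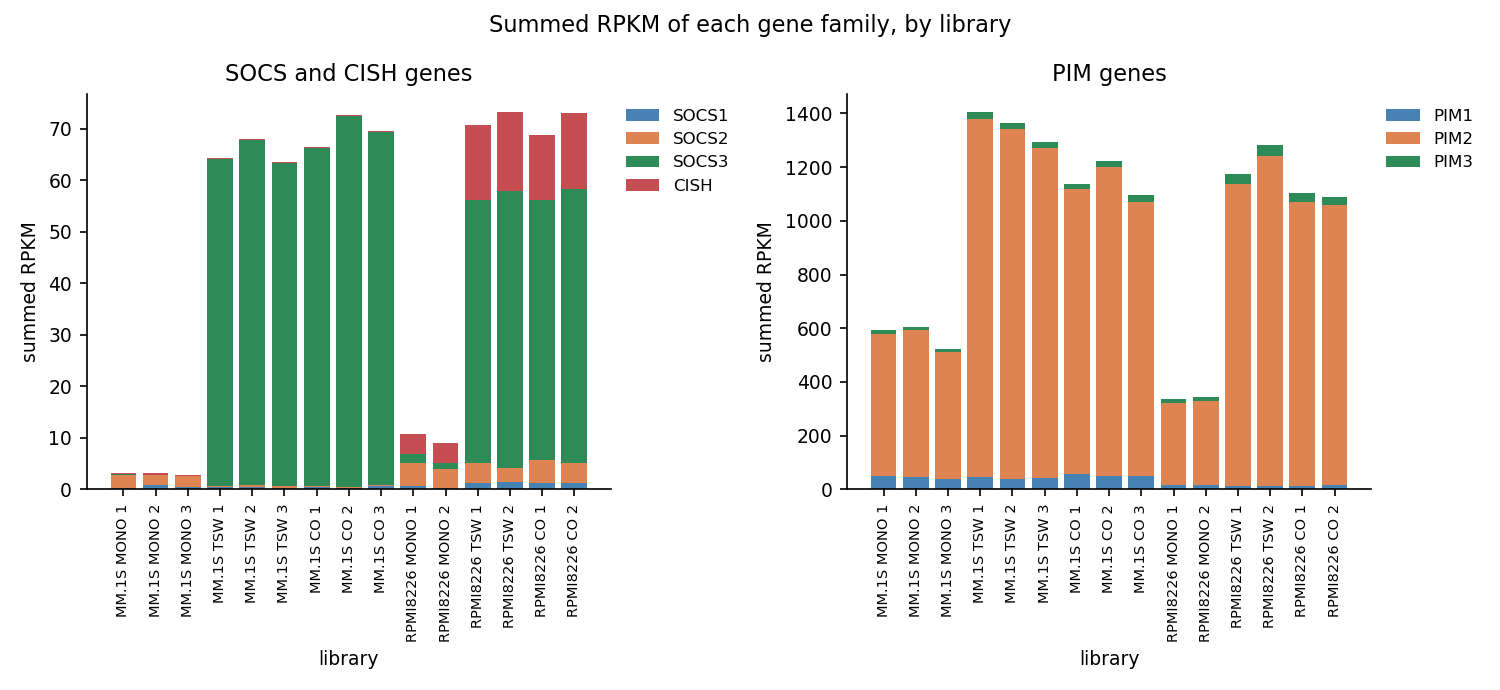
Summed RPKM of the SOCS and CISH genes (left) and of the PIM genes (right) in each of the 15 libraries, with 1 colour per gene and bars from 0. SOCS3 fills the TSW and CO bars of MM.1S, CISH adds to it in RPMI8226, and PIM2 fills most of every PIM bar.

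BCL3, the nuclear partner of NF-kappaB, was higher with stroma in both lines. BCL3 (Entrez 602, chr19:44747705-44760044) had an RPKM of 6.06, 5.50 and 4.49 in MM.1S MONO, 21.4, 21.7 and 21.4 in TSW, and 20.6, 18.1 and 17.2 in CO. In RPMI8226 it had 2.98 and 2.57 in MONO, 28.2 and 31.7 in TSW, and 25.6 and 25.7 in CO. MONO was lowest and TSW highest in both lines, and the conditions did not overlap. The log2 fold change for TSW vs MONO was 1.83 (SE 0.11, limma adjusted p = 1.17e-06) in MM.1S and 3.04 (SE 0.09, adjusted p = 2.14e-09) in RPMI8226. For CO vs MONO it was 1.63 (adjusted p = 2.14e-06) and 2.82 (adjusted p = 3.23e-09).

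Contact with HS5 cells was asked about by CO vs TSW. By limma 0 of 8 members were called in MM.1S, where 0.374% of genes past the filter were called higher and 0.0394% lower, and 128 and 6 of 16587 in the fit of all genes, although 2 had an unadjusted p under 0.05. In RPMI8226 0 of 8 were called, where 1.90% of genes past the filter were called higher and 2.39% lower, and 210 and 248 of 16784 in the fit of all genes, with 4 at an unadjusted p under 0.05. How many of all genes had an unadjusted p under 0.05 was not counted. At an adjusted p under 0.05 without the fold threshold, 39 genes were higher and 5 lower in MM.1S, and 1045 and 1804 in RPMI8226. The voom alternative also called 0 members in each line. For SOCS3 the log2 fold change was 0.09 (95% interval -0.09 to 0.27) in MM.1S and -0.02 (-0.24 to 0.20) in RPMI8226. PIM1 was higher in every CO library than in every TSW library in both lines, by 0.35 (0.14 to 0.57, adjusted p = 0.443) in MM.1S and 0.23 (0.02 to 0.44, adjusted p = 0.0967) in RPMI8226. PIM2 and BCL3 were lower without overlap in both lines, and neither was called. PIM2 changed by -0.26 (-0.51 to 0.00, limma adjusted p = 0.998) in MM.1S and -0.16 (-0.31 to -0.01, adjusted p = 0.0975) in RPMI8226. BCL3 changed by -0.20 (-0.45 to 0.04, adjusted p = 0.998) and -0.21 (-0.42 to -0.01, adjusted p = 0.106). How many of all genes separated in this way was not counted, so the lack of overlap, also for PIM1, is a description. In RPMI8226 PIM2 turned to 0.01 and SOCS3 to 0.15 once GC content and length were corrected by loess. PIM3 in RPMI8226, at -0.26 (-0.43 to -0.08, adjusted p = 0.0349), passed the adjusted p but not the fold threshold. The plot of fold changes sets the intervals side by side.

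**Figure D4:**
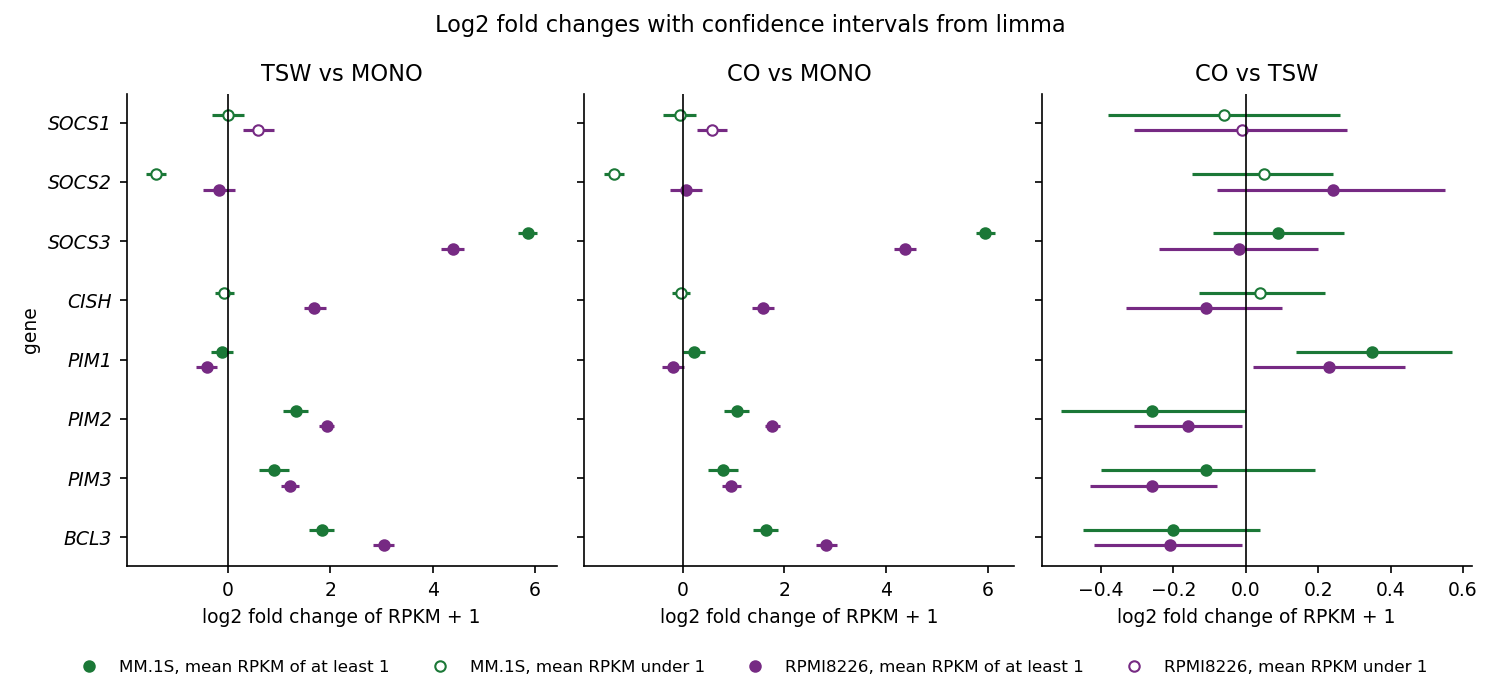
Log2 fold changes of RPKM + 1 with 95% confidence intervals from limma for each gene, in MM.1S (green, 3 libraries per condition) and RPMI8226 (purple, 2 per condition), with open points where the mean RPKM was under 1. SOCS3 lies farthest to the right in both comparisons with MONO, SOCS2 lies left of 0 in MM.1S, and all CO vs TSW estimates lie between -0.26 and 0.35 on an axis of its own.

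Stromal markers had higher summed levels in MM.1S CO. Several of the 18 passed the filter only through CO, so no count of calls or median is given for them. Their summed RPKM in MM.1S was 7.48, 9.71 and 9.85 in MONO, 6.40, 7.45 and 7.48 in TSW, and 145, 161 and 134 in CO. MMP1, a collagenase, was the most abundant in MM.1S CO, with 44.5, 46.9 and 41.0, and had no PET in MONO or TSW. In RPMI8226 the sum was 3994 and 4314 in MONO, 1683 and 1967 in TSW, and 2094 and 2296 in CO, nearly all of it FN1, the matrix protein fibronectin, which RPMI8226 cells hold in monoculture. Leaving FN1 out, the sum was 4.33 and 4.16 in MONO, 5.14 and 4.93 in TSW, and 86.4 and 127 in CO. FN1 itself was called lower in RPMI8226, by -1.19 for TSW and -0.99 for CO vs MONO. COL1A2, COL3A1, MMP1, MMP2 and TFPI2 were at 0 in every MONO and TSW library of both lines, and POSTN in every library. Whether RNA of HS5 cells adds to the CO values of the members was not tested. In RPMI8226 LOX, which passed the filter only through CO (mean RPKM 1.93), had a mean of 0.236 in MONO and 0.978 in TSW. LOX was called higher in TSW vs MONO (log2 fold change 0.68, limma adjusted p = 0.000503). TAGLN had 1.34 and 2.40 without a call (log2 fold change 0.55, limma adjusted p = 0.00351). In CO vs MONO TAGLN was called higher (0.89, limma adjusted p = 0.000111).

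Whether the lines changed by different amounts was tested in 1 fit of all 15 libraries, as the log2 fold change in RPMI8226 minus that in MM.1S. Gene lengths and scaling were shared by both deposited tables, which permits the joint fit. For TSW vs MONO, PIM2 and BCL3 were called higher in RPMI8226 than in MM.1S, 2 of the 5 members in that fit, against 10.9% of 9397 genes. SOCS3 was called lower, against 16.0% of genes. For CO vs MONO the same members were called, against 11.3% of genes higher and 20.6% lower. For CO vs TSW limma called 0 members, with 0 at an unadjusted p under 0.05, against 0.0426% of genes past the filter higher and 0.0958% lower, and 19 and 47 of 15709 in the fit of all genes, and voom also called 0. The median over all genes of this difference was -0.12 for TSW vs MONO and -0.14 for CO vs MONO, and median-of-ratios scaling moved it by 0.12 and 0.14.

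The difference for SOCS3 was -1.47 (SE 0.13, limma adjusted p = 1.68e-06) for TSW vs MONO and -1.57 (SE 0.13, adjusted p = 6.15e-07) for CO vs MONO, and with voom -3.78 and -3.89. RPMI8226 thus rose less from a higher start, and its TSW and CO levels came to 0.814 and 0.754 times those of MM.1S. For BCL3 the difference was 1.20 (SE 0.16, adjusted p = 5.60e-05) and 1.19 (SE 0.16, adjusted p = 3.78e-05). The order of the lines turned over, since RPMI8226 had 0.518 times the MM.1S mean RPKM in MONO and 1.39 times in TSW. PIM2 differed by 0.61 (SE 0.15, adjusted p = 0.00486) for TSW vs MONO and 0.70 (SE 0.15, adjusted p = 0.00141) for CO vs MONO. Its MONO levels did not overlap between the lines, while its TSW and CO levels did, at 0.914 and 0.975 times those of MM.1S in the mean. The TSW difference of PIM2 lost its call without MM.1S MONO replicate 2 (0.56), MM.1S TSW replicate 3 (0.57) or RPMI8226 TSW replicate 2 (0.54), each under the fold threshold. PIM1 differed by -0.30 (adjusted p = 0.124) and -0.42 (adjusted p = 0.0297), and PIM3 by 0.33 (adjusted p = 0.183) and 0.17 (adjusted p = 0.476), without a call.

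For the 3 members under the filter in MM.1S, the fit of all 15709 genes called each difference higher in RPMI8226, against 8.59% of genes for TSW vs MONO and 8.87% for CO vs MONO. CISH differed by 1.77 (SE 0.15, limma adjusted p = 2.88e-06) and 1.61 (SE 0.15, adjusted p = 4.92e-06). Its TSW level was 98.8 times higher in RPMI8226 than in MM.1S, against 18.2 times in MONO. SOCS2 differed by 1.23 (SE 0.18, adjusted p = 0.000308) and 1.42 (SE 0.18, adjusted p = 7.73e-05), and with voom by 3.15 and 3.09. SOCS1 differed by 0.60 (SE 0.21, adjusted p = 0.0478) and 0.64 (SE 0.21, adjusted p = 0.0312), close to both thresholds, and it lost the call with voom (adjusted p = 0.140 and 0.0761), with a pseudocount of 0.1 (0.131 and 0.0769), with the replicate block (0.0842 and 0.0597), for TSW with the loess correction (0.0749), and without any of several libraries, among them RPMI8226 MONO replicate 2 (adjusted p = 0.201 and 0.146).

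Across libraries, the members that rose followed each other within a line. Pearson's r of log2(RPKM + 1) between SOCS3 and BCL3 was 0.985 over the 9 MM.1S libraries and 0.998 over the 6 of RPMI8226, and between PIM2 and BCL3 it was 0.989 and 0.999. SOCS2 and SOCS3 had an r of -0.989 in MM.1S and -0.142 in RPMI8226. These values describe libraries that fall into culture conditions, so they mostly restate the difference from MONO, and no p is given. Among 9396 genes, the patterns closest to SOCS3 by the mean r of both lines were those of BHLHE40 (0.998), JUNB (0.998) and GBP2 (0.997). Closest to PIM2 were SBNO2 (0.996), XBP1 (0.995) and CARS1 (0.995), and closest to BCL3 JUNB (0.997), PTP4A3 (0.995) and CYTH4 (0.995). PIM3 was nearest to ANXA11 (0.992), FLOT1 (0.987) and NARF (0.983). PIM1 did not follow the members that rose, with an r to BCL3 of 0.119 in MM.1S and -0.791 in RPMI8226. The genes nearest to PIM1 were CHD3 (0.920), PLXND1 (0.847) and KRT15 (0.846).

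Counts of called genes in lists are read beside those over all genes past the filter. In TSW vs MONO 6.48% were called higher and 4.16% lower in MM.1S, and 14.5% and 17.9% in RPMI8226. For CO vs MONO these were 7.13% and 4.65% in MM.1S, and 16.4% and 22.9% in RPMI8226. Some list genes with a MONO mean under 1 passed the filter only through TSW and CO, so the outcome shapes the counts and medians that hold them, which are a description. These were IL13RA1, FOS and NFKBIZ in both lines, LRG1 in MM.1S and PTPRC in RPMI8226.

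Upstream of the members, several STAT genes were themselves called higher with stroma. Of 7 STAT genes 6 were tested in each line, and 4 were called higher in TSW vs MONO in both, with a median log2 fold change of 0.97 in MM.1S and 2.05 in RPMI8226 against 0.01 and -0.08 over all genes. STAT3 had a mean RPKM of 15.5 in MM.1S MONO and 44.8 in TSW, a log2 fold change of 1.47 (limma adjusted p = 4.47e-07), and 17.8 and 58.9 in RPMI8226, a change of 1.68 (adjusted p = 1.53e-08). STAT4, which serves interleukin-12 signals, rose by 1.45 and 2.43. STAT2 rose by 0.66 and 2.98. In CO vs MONO 3 STAT genes were called in MM.1S and 4 in RPMI8226, with medians of 0.84 and 1.99 against 0.01 and -0.09 over all genes.

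Among the JAK kinase genes JAK3, which serves receptors with the common gamma chain, was the 1 of 4 called in MM.1S, from a mean RPKM of 4.41 in MONO to 22.3 in TSW (log2 fold change 2.11, limma adjusted p = 6.07e-08) and 19.5 in CO (1.93, adjusted p = 4.83e-08). Of 3 tested in RPMI8226, 0 were called in TSW vs MONO, while CO vs MONO called JAK2 (0.88, adjusted p = 4.32e-05). JAK medians were 0.18 and 0.42 for TSW and 0.13 and 0.43 for CO vs MONO. Among 14 cytokine receptor genes, 12 were tested in each line, and 2 were called higher in MM.1S (6.48% of all genes) and 7 in RPMI8226 (14.5%) in TSW vs MONO, with medians of 0.14 and 0.80. IL13RA1, a chain of the interleukin-13 receptor, rose by 2.35 in MM.1S, from a mean RPKM of 0.488 to 6.58, and by 3.54 in RPMI8226, from 0.215 to 13.2. IFNGR1 rose by 0.62 in MM.1S, and IL21R and the common gamma chain gene IL2RG rose by 2.29 and 2.12 in RPMI8226, where IFNAR2 rose by 1.35. In MM.1S IL21R had -0.54 (adjusted p = 0.00235) and IL2RG -0.36 (adjusted p = 0.0148), at fold changes under 1.5. In CO vs MONO the counts were 2 and 9, with medians of 0.12 and 0.89.

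Other inhibitors of the pathway were measured beside SOCS3. Of the 4 other SOCS genes SOCS7 was called higher in MM.1S, by 0.68 in TSW (limma adjusted p = 0.00121) and 0.72 in CO vs MONO, and 0 of 4 were called in RPMI8226 in either comparison. The list medians were 0.25 and -0.23 for TSW and 0.39 and 0.14 for CO vs MONO. Among 4 genes of the SOCS box ubiquitin ligase, CUL5 was called in MM.1S CO vs MONO (0.63, adjusted p = 0.0154) and 0 in the other 3 comparisons with MONO, and the medians were 0.13 and -0.03 for TSW and 0.06 and -0.29 for CO. Of 11 tested other JAK-STAT inhibitors, the phosphatase gene PTPN11 was called higher in MM.1S (0.71 in TSW and 0.70 in CO), with list medians of 0.29 in TSW and 0.17 in CO. In RPMI8226 the phosphatase genes PTPRC (2.26 in TSW, from a mean RPKM of 0.0398 to 3.99, and not tested in MM.1S) and PTPN6 (1.57) were called higher and DUSP3 lower (-0.60), with list medians of -0.12 in TSW and 0.21 in CO, where 2 were called higher and 0 lower.

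Other known STAT3 targets were measured too. In TSW vs MONO 8 of the 17 tested were called higher and 0 lower in MM.1S, with a median of 0.53, and 10 higher and 3 lower in RPMI8226, with a median of 0.82. SGK1, a survival kinase, rose by 3.14 in MM.1S (limma adjusted p = 6.89e-08) and 5.51 in RPMI8226 (adjusted p = 1.47e-10). JUNB rose by 2.28 and 2.93, and LRG1 by 1.62 and 4.13. FOS rose by 2.21 in MM.1S, and MCL1, which protects myeloma cells from apoptosis, rose by 2.47 in RPMI8226. The 3 called lower in RPMI8226, singled out after their values were seen, were MYC, CCND1 and CCND2, which drive the cell cycle, and their log2 fold changes in CO vs MONO were -1.53, -1.46 and -0.98. In CO vs MONO 7 were called higher in MM.1S, and 10 higher and 3 lower in RPMI8226, with medians of 0.48 and 1.02.

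BCL3's own circle was mixed in MM.1S. Of 11 tested NF-kappaB partners and inhibitors, 2 were called higher and 2 lower in MM.1S TSW vs MONO (median -0.24), and 6 higher and 1 lower in RPMI8226 (median 0.71). BIRC3, an inhibitor of apoptosis, rose by 1.10 in MM.1S (limma adjusted p = 0.000197) and 2.10 in RPMI8226 (adjusted p = 1.36e-07), and NFKBIZ, another nuclear IkB gene, by 0.83 and 1.05. TNFAIP3, a feedback inhibitor, and REL changed by -0.86 and -0.60 in MM.1S. In RPMI8226 TNFAIP3 was called higher, by 0.71 (adjusted p = 4.88e-05) in TSW and 0.82 in CO vs MONO. RELB and NFKB2 of the noncanonical branch rose by 1.37 and 0.95 in RPMI8226. In CO vs MONO the counts were 2 higher and 1 lower in MM.1S and 6 and 1 in RPMI8226, with medians of -0.22 and 0.67.

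Downstream of the PIM kinases, 10 of 10 substrate and chaperone genes were tested. In TSW vs MONO 2 were called higher and 1 lower in MM.1S (median -0.23), and 2 higher and 3 lower in RPMI8226 (median -0.10), where 14.5% and 17.9% of all genes were. CDKN1A, the cell cycle inhibitor p21, rose by 2.27 in MM.1S (limma adjusted p = 4.87e-07) and 2.03 in RPMI8226 (adjusted p = 2.32e-08). BAD, a death-promoting substrate, changed by -0.82 in MM.1S, where EIF4EBP1 rose by 0.71. CDC25A, a cell cycle phosphatase, changed by -1.64 in RPMI8226 and the chaperone gene HSP90AA1 by -2.35, while CDKN1B rose by 1.21. In CO vs MONO 1 was called higher and 2 lower in MM.1S and 3 and 4 in RPMI8226, with medians of -0.17 and -0.23. CDC25A changed by -0.63 in MM.1S CO vs MONO. Between CO and TSW none of the 9 pathway lists had more than 1 gene called in a direction. In MM.1S the 1 call was CDKN1A, lower by limma, and in RPMI8226 the calls were 1 SOCS box gene lower, 1 NF-kappaB gene higher, and 1 PIM substrate in each direction.

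**Figure D5:**
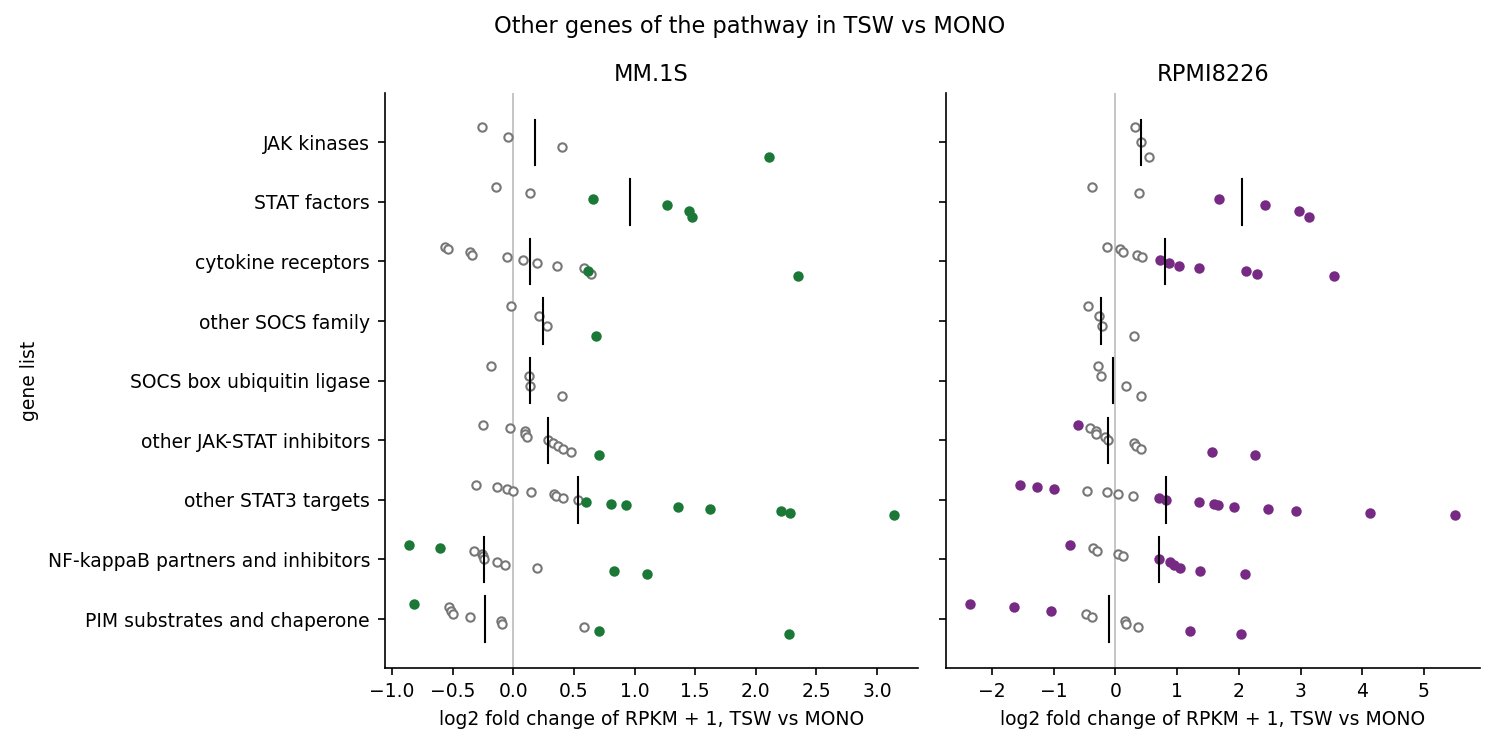
Log2 fold changes of RPKM + 1 in TSW vs MONO for the tested genes of 9 lists in MM.1S (left) and RPMI8226 (right), with filled points for called genes, open points for the others and black bars at list medians. The bars of the STAT genes stand at 0.97 in MM.1S and 2.05 in RPMI8226.

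Plasma cell genes were not uniform across the conditions either. TNFRSF17, the BCMA receptor gene, changed by -1.80 in MM.1S (limma adjusted p = 7.19e-06) and -3.50 in RPMI8226 (adjusted p = 8.12e-09) in TSW vs MONO. XBP1, the secretory regulator, rose by 0.87 and 1.24, and PRDM1 by 0.75 and 0.94, while CD38 rose by 1.46 in RPMI8226. Of the markers tested, 2 of 8 in MM.1S and 4 of 7 in RPMI8226 were called higher, with 1 and 2 lower, and the counts were the same in CO vs MONO. Medians were -0.07 and 0.94 for TSW and 0.05 and 0.76 for CO vs MONO. No B cell marker reached the filter in either line. CD38 also served for sorting, so its level is not independent of how the cells were taken.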

How the data were processed

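RNA-Seq of 15 libraries was analysed. Per the submitters' processing notes and the study's methods, the authors aligned reads to hg38 with Subread, counted PETs on RefSeq transcripts with featureCounts, and computed RPKM. The deposited values are log2 of RPKM + 1 with 0.0001 added, which the values show and no source states; the design had assumed RPKM. The offset was subtracted, and the other RPKM values in the text were made from these log2 values. Whole PETs were recovered from the spacing of values, 100% of those above 0 falling within 0.05 of one. Counting limits cover counting error only.

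Tests used limma 3.58.1 in R 4.3.3 (lmFit, contrasts.fit, eBayes with trend), with 3 conditions of a line in 1 fit, and 6 groups of 15 libraries for the difference between lines. Genes needed a mean RPKM of at least 1; for members under it the fit of all genes was used, as decided once values had been seen. Simulated data served to test the code. Alternatives were a pseudocount of 0.1, median-of-ratios scaling, no filter, a filter at a mean RPKM of 5, a block for replicate number, a fit of just the conditions compared, no fold threshold, voom on recovered PETs, a loess correction for GC content and length, and each library left out in turn. No median, count or correlation over a list was tested.

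Genes named are the 8 members, up to 4 genes of each list with the largest change among those called against MONO in that line, and the 3 genes most like each member by mean r. Members and lists were chosen with earlier results of these data known. Promoters are from RefSeq. Python 3.11.15, numpy 2.4.6, pandas 2.3.3 and matplotlib 3.10.9 were used.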

Additional observations from a re-analysis of the deposited data

Results flagged for a closer look

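By the joint limma test, 6 of the 8 members were called for a different response to stroma in RPMI8226 and MM.1S. The difference is the log2 fold change in RPMI8226 minus that in MM.1S. These 6 are pooled over separate fits. SOCS3, BCL3 and PIM2 come from that of genes past the filter, and CISH, SOCS2 and SOCS1 from that of all genes. Over the genes past the filter, 10.9% were called higher and 16.0% lower for TSW vs MONO, and 11.3% and 20.6% for CO vs MONO. SOCS3 differed by -1.47 for TSW vs MONO and -1.57 for CO vs MONO, the only negative difference called among the members. BCL3 differed by 1.20 and 1.19 and PIM2 by 0.61 and 0.70 in the same comparisons. Among members with a mean RPKM under 1 in MM.1S, CISH differed by 1.77 and 1.61, SOCS2 by 1.23 and 1.42, and SOCS1 by 0.60 and 0.64. In their fit of 15709 genes, 8.59% were called higher for TSW vs MONO and 8.87% for CO vs MONO. Called lower there were 1748 and 2232 genes. SOCS1 lost both calls with voom, a pseudocount of 0.1 and the replicate block, and without some libraries, and PIM2 lost that for TSW without any 1 of 3 libraries. SOCS2 fell in MM.1S without a called change in RPMI8226, and CISH was higher in RPMI8226 at levels that MM.1S did not reach. The starting levels in MONO did not overlap between the lines for these members except SOCS1, and their part in these differences was not tested.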

How the results depend on the processing

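The members called higher against MONO, 4 and 4 in MM.1S, were the same in number under every alternative, and those in RPMI8226, 5 and 5, did not fall. With the replicate block these counts stayed at 4, 4, 5 and 5. Pairing by replicate number was not established (r of -0.380 to 0.286 in MM.1S and 0.164 to 0.271 in RPMI8226). Members called lower in MM.1S numbered 1 without the filter for TSW and 1 for CO against MONO, and 0 to 1 for each with libraries left out. Without the fold threshold RPMI8226 had 1 called lower in TSW vs MONO, and 1 for CO against TSW. For the difference between lines, 5 were called higher without the filter in TSW and 5 in CO vs MONO, 1 to 3 in TSW vs MONO with libraries left out, and 2 lower in CO vs MONO without the fold threshold. Directions turned only among small changes that were not called. With the loess correction SOCS1 became 0.03 in MM.1S CO vs MONO and 0.09 in RPMI8226 CO vs TSW, PIM1 became 0.06 in RPMI8226 CO vs MONO, and in RPMI8226 CO vs TSW PIM2 became 0.01 and SOCS3 0.15. Median-of-ratios scaling gave SOCS3 0.02 there. With libraries left out, MM.1S CISH ran from -0.16 to 0.01 (TSW vs MONO) and -0.12 to 0.06 (CO vs MONO), SOCS1 from -0.16 to 0.08 (CO vs MONO) and -0.15 to 0.04 (CO vs TSW), and SOCS2 from -0.03 to 0.09 (CO vs TSW). RPMI8226 SOCS2 ran from -0.37 to 0.03 (TSW vs MONO) and -0.06 to 0.19 (CO vs MONO), and in CO vs TSW SOCS1 ran from -0.07 to 0.04 and SOCS3 from -0.06 to 0.02. The difference between lines in CO vs TSW ran from -0.06 to 0.14 for SOCS1, -0.01 to 0.39 for SOCS2 (-0.06 with voom) and -0.09 to 0.07 for BCL3 (0.02 with median-of-ratios scaling, 0.09 with loess). That scaling moved the share of called genes that were higher in RPMI8226 from 44.7% to 52.1% in TSW vs MONO, from 41.7% to 51.5% in CO vs MONO and from 44.2% to 57.8% in CO vs TSW, and in the difference between lines from 40.5% to 55.0% for TSW vs MONO and from 35.5% to 52.5% for CO vs MONO; the cause was not tested. Leaving out an RPMI8226 library leaves 1 in its condition, which the fit takes to vary like the others.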
